A study of Homo sapiens with 16 samples.

Results

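The comparison described here was Jurkat cells at day 8, sh-SH2D1A against sh-NC, chosen by its label and its own count table: 4 of the 16 libraries of the series, 2 in each arm. Jurkat is an established line grown from a human T-ALL, an acute leukaemia of immature T cells. Per the series' design text the cells were transfected with either a short hairpin RNA (shRNA) against SH2D1A, or with the control shRNA sh-NC. All 4 libraries thus carried an shRNA, and no untransfected cells are among the samples. The other libraries were Jurkat at day 10 and 6T-CEM, a T-ALL line too, at days 5 and 10, each with both shRNAs in duplicate. The labels give neither the event from which days are counted nor the sequence of the hairpin. They name no other hairpin against SH2D1A. Effects of losing SH2D1A and other effects of the hairpin thus cannot be told apart in any comparison here.

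SH2D1A encodes SAP, a small adaptor made of little more than an SH2 domain. SAP binds the phosphorylated tails of SLAM family receptors on T and NK cells, brings in the kinase FYN, and keeps inhibitory phosphatases such as SHIP-1 (INPP5D) away from those tails. Signals from these receptors and from the T cell receptor run through the RAS, MEK and ERK kinases, through NF-kB and through calcium. CHI3L2, the other gene in the title of the series, encodes a secreted chitinase-like protein that binds sugars but does not cut chitin.

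Total counts were 28586944 to 33788024 per library. Levels are given as CPM, counts relative to the library's total after scaling by the trimmed mean of M values (TMM), where a count of 0 allows up to 0.0888 to 0.105 CPM, for counting error only. Summed levels of gene sets take in all members, tested or not, and use the library's total without that scaling. Of 19266 genes that passed the filter on low counts, 1008 (5.23%) were higher and 1373 (7.13%) lower with sh-SH2D1A at an edgeR adjusted p under 0.05, here called rose and fell, 12.4% in all. The groups did not overlap in any called gene. With 2 libraries in each arm a call nearly requires this, so here and below it adds no support to a call. Most changes were small: 1765 called genes moved by under 1.5-fold, 105 rose and 106 fell by 2-fold or more, and the median absolute log2 change of called genes was 0.40. The called genes held 25.4% of all counts. The labels do not say that the 2 libraries of an arm came from separate cultures, so p-values measure the spread between these libraries, which may be technical.

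The number of calls changed with the library left out. Such a fit has 1 library in an arm, so its measure of spread came from the 2 libraries of the other arm alone. The sh-NC pair differed more than the sh-SH2D1A pair (chi-square per degree of freedom of 9.49 and 5.85). The part of this in the counts was not tested. Leaving out sh-SH2D1A replicate 1 gave 267 rises and 568 falls, and leaving out replicate 2 gave 177 rises and 456 falls. Without sh-NC replicate 1 there were 1391 rises and 1587 falls, and without sh-NC replicate 2 1096 rises and 1305 falls. Where a list count moved by over 1.5 times with a library left out, the counts with libraries left out in turn are given beside it. Lists with no call in the fit of all 4 libraries are not covered by this. Each gene described below as risen or fallen kept its call when any 1 of the 4 libraries was left out, unless its sentence says otherwise. Abundant genes passed more often: among 2444 genes of at least 100 CPM, 13.3% rose and 14.7% fell. The median log2 change of all tested genes was -0.0032, so lists of genes are read against that value and against the shares above.

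**Figure D1:**
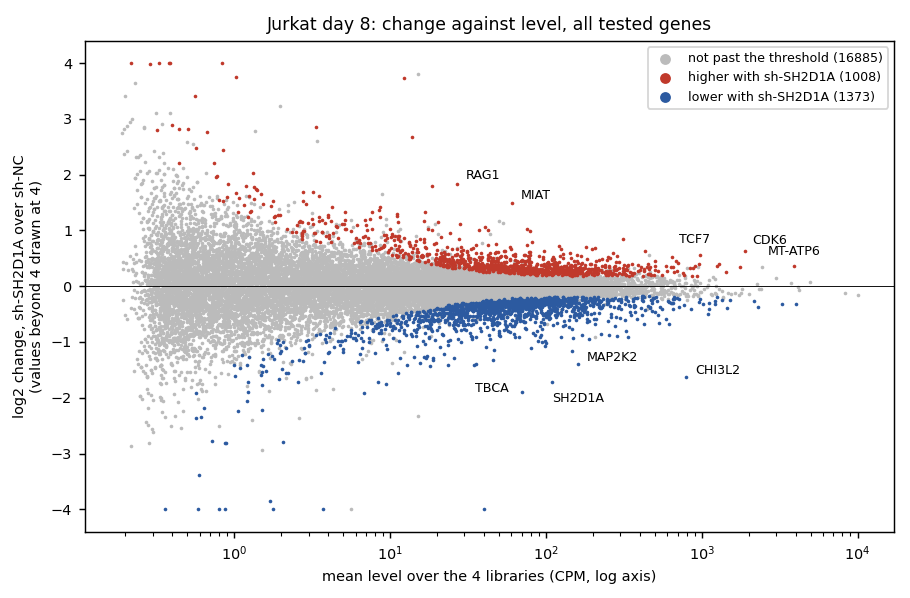
Each point is 1 tested gene of the Jurkat day 8 comparison, with its mean level over the 4 libraries in CPM on a log axis and its log2 change with sh-SH2D1A over sh-NC on the vertical axis. Values beyond 4 in either direction are drawn at 4. Grey points did not pass the threshold, red points (1008) were higher and blue points (1373) lower, and called changes narrow towards abundant genes.

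The cells carried the markers of their label. All 12 genes of a T-cell leukaemia marker set passed the filter, with a summed level of 3250 to 3400 CPM in the controls against 2830 to 2900 CPM with sh-SH2D1A. Of these, 8 fell, among them CD2, CD5, CD7, TRAC and CD247. Leaving out sh-NC replicate 1, sh-NC replicate 2, sh-SH2D1A replicate 1 and sh-SH2D1A replicate 2 in turn gave 8, 8, 5 and 5 falls, and 0, 1, 0 and 0 rises. In bulk RNA, fewer cells of a type and less RNA per cell cannot be told apart. Of 9 B cell markers 3 passed the filter and 3 were at 0 in all 4 libraries, with a summed level of 66.8 to 71.7 CPM in the controls against 60.2 to 61.6 CPM with sh-SH2D1A, most of it CD79A. Myeloid markers (2 of 11 tested, 3 at 0) summed to 9.04 to 11.1 CPM in the controls against 14 to 14.1 CPM with sh-SH2D1A, erythroid and megakaryocyte markers (1 of 11, 5 at 0) to 5.15 to 5.56 CPM in the controls against 4.46 to 4.79 CPM with sh-SH2D1A, and epithelial and packaging-cell markers (3 of 9, 4 at 0) to 2.69 to 3.05 CPM in the controls against 2.64 to 3.5 CPM with sh-SH2D1A. No marker of these 4 sets passed the test. The share of counts from the mitochondrial genome was 3.945% and 4.364% in the controls against 4.347% and 4.406% with sh-SH2D1A. Over 5 equal bins of 10313 genes of at least 10 CPM ordered by transcript length, the median log2 change ran from -0.02 to 0.02. Over 5 bins ordered by GC content it ran from -0.05 in the lowest to 0.03 in the highest, where 4.61% and 11.3% of genes rose and 14.4% and 9.89% fell. Between libraries of an arm, replicate 2 over replicate 1, the medians over the GC bins ran from -0.05 to 0.04 with sh-SH2D1A. In the controls they were 0.00 to 0.01. From the shortest to the longest transcripts they ran from 0.08 to -0.09 in the controls and from -0.01 to 0.00 with sh-SH2D1A. The part of base composition and transcript length in the results was not tested.

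The targeted gene was lower in both sh-SH2D1A libraries. SH2D1A stood at 162 and 174 CPM in the controls against 53.3 and 48.8 CPM with sh-SH2D1A (log2 change -1.72, SE 0.07, edgeR adjusted p = 3e-05). CHI3L2 stood at 1169 and 1235 CPM in the controls against 394 and 379.5 CPM with sh-SH2D1A (log2 change -1.64, SE 0.05, edgeR adjusted p = 1.61e-05), a difference of means of -816 CPM, which among called genes only GAPDH exceeded. For both genes the arms were far apart and the libraries within an arm close together. Of other glycosidase-like relatives, CHID1 had a log2 change of -0.11 (adjusted p = 0.42) and CTBS of -0.44 (adjusted p = 0.0758), neither past the threshold by edgeR.

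Around SAP the SLAM receptors and their partners leaned to lower levels, and no member rose. Of SLAM receptors and SAP partners 9 of 19 tested members fell and none rose, with a median log2 change of -0.27. The count includes SH2D1A itself. LY9 (SLAMF3), a receptor that binds itself on neighbouring cells, was at 23.9 and 25.4 CPM in the controls against 15.6 and 16.2 CPM with sh-SH2D1A (log2 change -0.63, SE 0.10, edgeR adjusted p = 0.0079). INPP5D, the lipid phosphatase SHIP-1 that competes with SAP for SLAM receptor tails, fell from 77.9 and 68.98 to 46.98 and 50.01 CPM (log2 change -0.60, SE 0.08, edgeR adjusted p = 0.00389). Both knockdown libraries were below both controls for each of these genes, as for every called fall. The diacylglycerol kinase DGKA, an enzyme that SAP restrains, was at 129.8 and 143 CPM in the controls against 105 and 109.5 CPM with sh-SH2D1A. Its fall (log2 change -0.35) was lost without sh-SH2D1A replicate 1 (edgeR adjusted p = 0.0932) and without sh-SH2D1A replicate 2 (edgeR adjusted p = 0.0724).

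The RAS to ERK chain held the largest fall after SH2D1A and CHI3L2 among genes with a mean of at least 100 CPM. MAP2K2, which encodes the kinase MEK2 directly above ERK, was at 231 and 233 CPM in the controls against 87.1 and 89.1 CPM with sh-SH2D1A (log2 change -1.40, SE 0.05, edgeR adjusted p = 2.11e-05). NRAS, the small GTPase at the head of the chain, stood at 128 and 132 CPM in the controls against 66.3 and 64.9 CPM with sh-SH2D1A (log2 change -0.99, SE 0.05, edgeR adjusted p = 0.000161). MAPK3, which encodes ERK1, was at 121 and 126 CPM in the controls against 85.2 and 91.1 CPM with sh-SH2D1A (log2 change -0.49, SE 0.06, edgeR adjusted p = 0.00261). The libraries of an arm lay within a few CPM of each other for these 3 genes, and the arms were well separated. MAP2K1, which encodes the related kinase MEK1, had a log2 change of -0.19 and did not pass the test (edgeR adjusted p = 0.0694).

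In the list of cascade members, their feedback inhibitors and ETV factors no gene rose. Of ERK cascade and ETV genes 11 of 33 tested members fell and none rose, with a median of -0.18, and the count includes MAP2K2, NRAS and MAPK3. With sh-NC replicate 1, sh-NC replicate 2, sh-SH2D1A replicate 1 and sh-SH2D1A replicate 2 left out in turn, there were 10, 10, 5 and 6 falls, and 0, 1, 0 and 0 rises. ETV5, an ETS factor induced by ERK, fell from 26.4 and 26.2 to 10.6 and 8.79 CPM (log2 change -1.44, SE 0.12, edgeR adjusted p = 0.000972). SPRED2, which holds RAS signalling back, was at 83.5 and 82.6 CPM in the controls against 49.5 and 58.7 CPM with sh-SH2D1A (log2 change -0.62, SE 0.08, edgeR adjusted p = 0.00434). DUSP6, the phosphatase that switches ERK off and is itself an ERK target, was low throughout at 6.13 and 4.72 CPM in the controls against 1.71 and 2.502 CPM with sh-SH2D1A. Its fall was lost without sh-SH2D1A replicate 1 (edgeR adjusted p = 0.0728), and 40.5% of its exonic bases lie in a gene on the other strand. Among immediate early genes, 8 of 28 tested members fell and 2 rose (9, 5, 5 and 4 falls, and 2, 2, 1 and 1 rises without sh-NC 1, sh-NC 2, sh-SH2D1A 1 and sh-SH2D1A 2), with a median of -0.32. IER2, of whose exonic bases 30.8% lie in a gene on the other strand, fell from 174 and 183 to 120 and 135 CPM, and BTG1, which slows division, from 58.3 and 57.7 to 39.9 and 38.6 CPM. EGR1, the early zinc-finger factor, was at 67.7 and 64.4 CPM in the controls against 34.8 and 36.1 CPM with sh-SH2D1A (log2 change -0.90, SE 0.07, edgeR adjusted p = 0.000605).

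In STAT5A the sh-SH2D1A libraries differed from each other. STAT5A, the transcription factor downstream of interleukin receptors, was at 133 and 137 CPM in the controls against 83.2 and 50.3 CPM with sh-SH2D1A (log2 change -1.01, SE 0.19, edgeR adjusted p = 0.0141). Both knockdown values lay below both controls, with replicate 2 much lower than replicate 1. Its relative STAT5B fell from 130.5 and 141 to 98.2 and 99.6 CPM (log2 change -0.46, SE 0.06, edgeR adjusted p = 0.00337). In the whole set of cytokine receptors and JAK-STAT genes 6 of 38 tested members fell and 1 rose (6, 5, 3 and 2 falls, and 3, 1, 0 and 0 rises without sh-NC 1, sh-NC 2, sh-SH2D1A 1 and sh-SH2D1A 2).

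**Figure D2:**
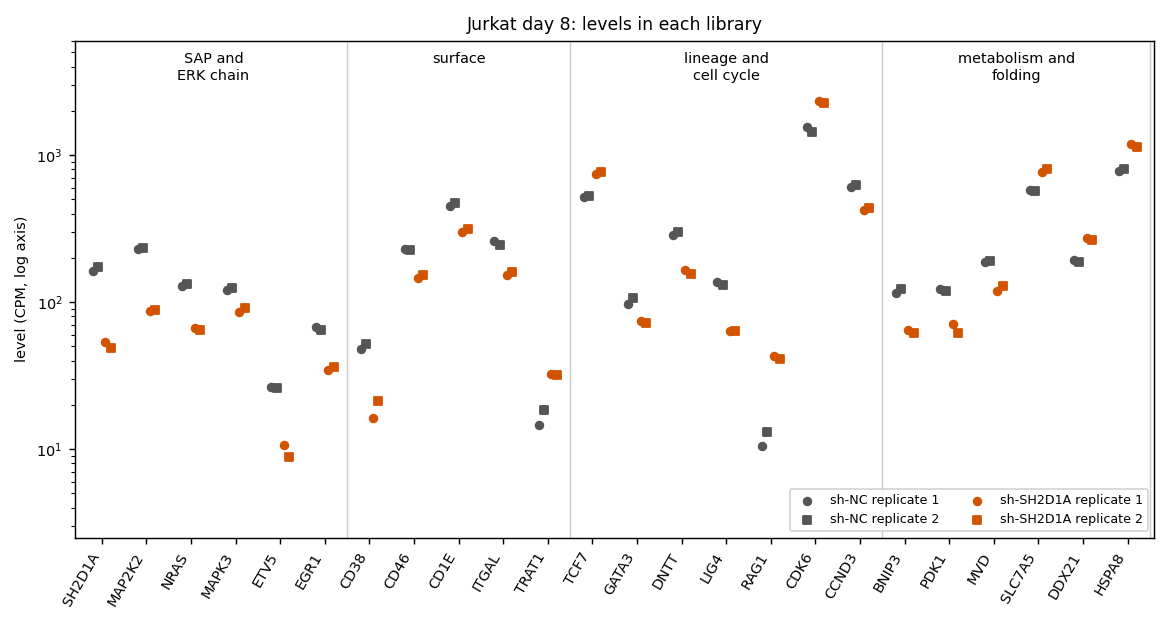
Levels in CPM on a log axis for 24 genes in the 4 Jurkat day 8 libraries, grey for sh-NC and orange for sh-SH2D1A, with circles for replicate 1 and squares for replicate 2. In each of these genes both sh-SH2D1A points lie on the same side of both sh-NC points, as in every called gene.

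Several lists of genes for surface proteins and their adaptors had larger shares of falls than the 7.13% of all tested genes. Their shares also exceeded the 14.7% of genes of at least 100 CPM. The list of chemokine and lipid homing receptors lay nearer to the 7.13%, with a median log2 change of -0.03. Of T cell receptor and proximal signalling genes 15 of 37 tested members fell and 2 rose, with a median of -0.19. There were 17, 16, 8 and 6 falls, and 2, 3, 1 and 1 rises when sh-NC replicate 1, sh-NC replicate 2, sh-SH2D1A replicate 1 and sh-SH2D1A replicate 2 were left out in turn. The receptor chains were unequal: TRAC, the alpha chain constant region, fell from 52.3 and 61.00 to 36.8 and 34.6 CPM and CD247, the zeta chain, from 109 and 110.3 to 73.6 and 82.6 CPM, while CD3G had a log2 change of 0.15 (adjusted p = 0.142 by edgeR). SIT1, an inhibitory transmembrane adaptor, fell from 88.8 and 91.5 to 63.5 and 63.8 CPM, and UBASH3B, a phosphatase that damps receptor signals, from 48.1 and 49.97 to 33.5 and 32.6 CPM. TRAT1 moved the other way. This adaptor, which stabilises the receptor complex, was at 14.7 and 18.4 CPM in the controls against 32.5 and 31.8 CPM with sh-SH2D1A (log2 change 0.96, SE 0.12, edgeR adjusted p = 0.00332).

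Among other leukocyte surface antigens 15 of 38 tested members fell and 3 rose, with a median of -0.20. Leaving out sh-NC replicate 1, sh-NC replicate 2, sh-SH2D1A replicate 1 and sh-SH2D1A replicate 2 in turn gave 16, 15, 11 and 8 falls, and 2, 4, 0 and 0 rises. CD38, the NAD-degrading ectoenzyme that is present on immature and activated T cells, was at 48.05 and 52.2 CPM in the controls against 16.3 and 21.3 CPM with sh-SH2D1A (log2 change -1.42, SE 0.12, edgeR adjusted p = 0.000999). CD46, a complement regulator, stood at 231 and 226 CPM in the controls against 145 and 153 CPM with sh-SH2D1A (log2 change -0.62, SE 0.05, edgeR adjusted p = 0.000883). CD1E, a CD1 family member of cortical thymocytes, was at 449.5 and 475 CPM in the controls against 302 and 312 CPM with sh-SH2D1A (log2 change -0.59, SE 0.05, edgeR adjusted p = 0.000999). CD1A, its relative, fell from 162 and 176 to 124 and 124 CPM. CD7 fell from 58.7 and 63.3 to 38.2 and 39.4 CPM and the coreceptor CD4 from 25.98 and 21.2 to 13.2 and 13.97 CPM. The arms did not overlap for any of these genes, as for every called gene.

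Costimulatory and inhibitory receptors had the most negative median of the surface lists, at -0.33, and 8 of 22 tested members fell and 2 rose. The list had 7, 7, 3 and 2 falls without sh-NC replicate 1, sh-NC replicate 2, sh-SH2D1A replicate 1 and sh-SH2D1A replicate 2, respectively. CD70, a membrane ligand of the TNF family, was at 11.5 and 10.9 CPM in the controls against 4.504 and 5.28 CPM with sh-SH2D1A (log2 change -1.19, SE 0.16, edgeR adjusted p = 0.00487). TNFRSF21 (death receptor 6) was one of the 2 that rose, from 37.4 and 37.4 to 54.3 and 59.1 CPM (log2 change 0.60, SE 0.07, edgeR adjusted p = 0.00281). Of the adhesion receptors 11 of 36 tested members fell and 2 rose. With sh-NC replicate 1, sh-NC replicate 2, sh-SH2D1A replicate 1 and sh-SH2D1A replicate 2 left out in turn, there were 11, 12, 4 and 4 falls, and 0, 1, 1 and 0 rises. JAM3, a junctional adhesion protein, fell from 188 and 201 to 102 and 103 CPM (log2 change -0.92, SE 0.05, edgeR adjusted p = 0.000252). ITGAL, the alpha chain of LFA-1, fell from 261 and 245 to 154 and 161 CPM and its ligand ICAM2 from 86.7 and 89.3 to 55.9 and 57.3 CPM. ICAM2 shares 26.8% of its exonic bases with PRR29 on the other strand, and the strand setting of the counts is not known.

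GIMAP genes, a cluster of small GTPases on chromosome 7 that support lymphocyte survival, had more falls than rises. Of the family 5 of 7 tested members fell and none rose, with a median of -0.39. GIMAP4 was at 88.2 and 90.02 CPM in the controls against 58.8 and 55.4 CPM with sh-SH2D1A (log2 change -0.64, SE 0.06, edgeR adjusted p = 0.00113). There were 5, 5, 4 and 1 falls when sh-NC replicate 1, sh-NC replicate 2, sh-SH2D1A replicate 1 and sh-SH2D1A replicate 2 were left out in turn. Of annexin, S100 and galectin genes 6 of 15 tested members fell and none rose (6, 5, 2 and 3 falls, and 1, 0, 0 and 0 rises without sh-NC 1, sh-NC 2, sh-SH2D1A 1 and sh-SH2D1A 2). ANXA1, a calcium-dependent membrane binder that mediates glucocorticoid effects, was at 65.9 and 65.4 CPM in the controls against 27.1 and 25.4 CPM with sh-SH2D1A (log2 change -1.32, SE 0.07, edgeR adjusted p = 0.000161).

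HLA class I genes, which present peptides to cytotoxic T cells, had more falls than rises, and class II genes had low levels. Of class I and peptide loading genes 7 of 19 tested members fell and 1 rose, with a median of -0.29. Leaving out sh-NC replicate 1, sh-NC replicate 2, sh-SH2D1A replicate 1 and sh-SH2D1A replicate 2 in turn gave 1, 1, 0 and 0 rises. NLRC5, the transactivator of class I genes, stood at 57.9 and 49.6 CPM in the controls against 36.4 and 33.8 CPM with sh-SH2D1A (log2 change -0.61, SE 0.09, edgeR adjusted p = 0.00637). HLA-C fell from 125 and 137 to 98.2 and 98.5 CPM. The call of HLA-C was lost without sh-SH2D1A replicate 2 (edgeR adjusted p = 0.0545). The beta-2 microglobulin gene B2M fell from 346 and 368 to 249 and 232 CPM. Class I genes are alike in sequence, so their reads can be split between them. The 13 class II genes of the list summed to 6.96 to 8.06 CPM in the controls against 7.61 to 7.63 CPM with sh-SH2D1A. Of these, 6 were tested and none passed. Of interferon response genes 6 of 44 tested members fell and 3 rose (7, 6, 2 and 0 falls, and 5, 3, 1 and 0 rises without sh-NC 1, sh-NC 2, sh-SH2D1A 1 and sh-SH2D1A 2).

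In the NF-kB list 12 of 33 tested members fell and 3 rose, with a median of -0.16. The list had 9, 10, 5 and 5 falls, and 3, 3, 0 and 0 rises without sh-NC replicate 1, sh-NC replicate 2, sh-SH2D1A replicate 1 and sh-SH2D1A replicate 2, respectively. NFKB2, which encodes the p100 subunit, was at 43.00 and 42.2 CPM in the controls against 28.6 and 27.2 CPM with sh-SH2D1A (log2 change -0.61, SE 0.07, edgeR adjusted p = 0.00288). TNFAIP3 (A20), which ends NF-kB signals, fell from 130.5 and 127 to 95.98 and 95.6 CPM (log2 change -0.43, SE 0.05, edgeR adjusted p = 0.0027). CYLD, a deubiquitinase with a like role, fell from 56.9 and 53.3 to 40.2 and 40.6 CPM. NFKBIA, the classical inhibitor and target, had a log2 change of -0.24 (adjusted p = 0.109 by edgeR) and BIRC3 of -0.28 (adjusted p = 0.0525).

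NFKB1, which encodes the p50 subunit and its precursor, was at 66.6 and 61.99 CPM in the controls against 29.1 and 29.1 CPM with sh-SH2D1A. IL32, a cytokine gene, was at 365 and 384 CPM in the controls against 198 and 204 CPM with sh-SH2D1A. The promoters of NFKB1, IL32 and B2M are shown because they carry the kappa B pattern, GGG, any 2 bases and TTTCC, to which NF-kB dimers are known to bind. The sequences are the 250 bases before the first start listed for each gene in RefSeq (GRCh38.p14), 5′ to 3′ on the gene's strand, with the matching letters on either strand in capitals.
NFKB1, chr4:102501109-102501358, plus strand: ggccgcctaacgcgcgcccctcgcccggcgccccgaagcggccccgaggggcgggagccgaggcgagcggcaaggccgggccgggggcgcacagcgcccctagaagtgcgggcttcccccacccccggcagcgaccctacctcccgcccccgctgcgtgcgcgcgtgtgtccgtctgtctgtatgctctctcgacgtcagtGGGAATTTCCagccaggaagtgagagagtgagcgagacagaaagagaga
IL32, chr16:3065153-3065402, plus strand: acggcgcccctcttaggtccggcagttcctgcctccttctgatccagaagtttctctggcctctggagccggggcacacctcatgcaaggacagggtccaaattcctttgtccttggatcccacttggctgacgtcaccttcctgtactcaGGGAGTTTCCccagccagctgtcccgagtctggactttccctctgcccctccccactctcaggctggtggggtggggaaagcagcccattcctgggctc
B2M, chr15:44711267-44711516, plus strand: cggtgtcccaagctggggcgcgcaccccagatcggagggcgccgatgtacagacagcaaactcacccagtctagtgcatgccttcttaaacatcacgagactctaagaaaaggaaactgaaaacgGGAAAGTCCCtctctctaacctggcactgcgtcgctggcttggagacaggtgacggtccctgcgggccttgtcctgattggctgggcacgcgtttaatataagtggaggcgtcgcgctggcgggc
The match begins 49 bases before the start in NFKB1 (log2 change -1.14), 99 in IL32 (-0.90) and 125 in B2M (-0.57), where it lies on the opposite strand. Of the NF-kB list, 10 of 28 members with a promoter in the RefSeq table held the pattern (35.7%) within 250 bases before to 50 after the start, against 1.92% of all 27305 promoters, 2.09% of those of tested genes and 20% of the 15 class I genes with one. Of the NF-kB list's genes with the pattern, NFKB1, IL32 and TNFAIP3 fell. REL, NFKBIA, NFKBIZ, BIRC3, BCL10 and LTB hold it too and did not pass the test. TRAF3, an adaptor with the pattern, was at 162 and 150.5 CPM in the controls against 193 and 202 CPM with sh-SH2D1A. The rise of TRAF3 was lost without sh-SH2D1A replicate 1 and without sh-SH2D1A replicate 2. A match is a description of the letters and not of binding.

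The transcription factors that define T-ALL and the T lineage for the most part did not pass the test. Of early T lineage factors 5 of 39 tested members fell and 2 rose (5, 4, 2 and 3 falls, and 4, 3, 1 and 1 rises without sh-NC 1, sh-NC 2, sh-SH2D1A 1 and sh-SH2D1A 2), and of T-ALL oncogenic factors 3 of 21 tested members fell and 1 rose (3, 3, 1 and 1 falls, and 1, 2, 1 and 1 rises without sh-NC 1, sh-NC 2, sh-SH2D1A 1 and sh-SH2D1A 2), with medians of -0.01 and -0.01. TAL1, the oncogenic helix-loop-helix factor active in Jurkat, was at 315 and 309.6 CPM in the controls against 296 and 288 CPM with sh-SH2D1A (adjusted p = 0.235 by edgeR). MYB was at 553 and 558 CPM in the controls against 595 and 594 CPM with sh-SH2D1A and RUNX1 at 661 and 639.5 CPM in the controls against 669 and 686 CPM with sh-SH2D1A, both also short of the threshold. The factors that did change went in different directions. TCF7, which encodes TCF-1 and sets T cell identity early, was at 521 and 531 CPM in the controls against 747 and 765 CPM with sh-SH2D1A (log2 change 0.52, SE 0.05, edgeR adjusted p = 0.00104). GATA3, the master factor of the lineage and of T helper 2 cells, was at 96.7 and 106 CPM in the controls against 74.03 and 71.9 CPM with sh-SH2D1A (log2 change -0.47, SE 0.06, edgeR adjusted p = 0.00419). TOX, a chromatin factor of thymocyte selection, fell from 156 and 153 to 114 and 114 CPM (log2 change -0.44, SE 0.05, edgeR adjusted p = 0.00214). For these 3 genes both libraries of an arm lay together, and TCF7 was the only one that rose.

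Among factors of effector and helper T cells 6 of 32 tested members rose and 3 fell, with a median of 0.09. With sh-NC replicate 1, sh-NC replicate 2, sh-SH2D1A replicate 1 and sh-SH2D1A replicate 2 left out in turn, there were 6, 6, 1 and 1 rises. BHLHE40, a factor induced by T cell receptor signals, was at 12.6 and 12.9 CPM in the controls against 3.87 and 3.93 CPM with sh-SH2D1A (log2 change -1.71, SE 0.15, edgeR adjusted p = 0.00105). HIF1A, the oxygen-regulated factor that drives glycolytic genes, fell from 91.8 and 97.5 to 67.4 and 71.1 CPM (log2 change -0.45, SE 0.06, edgeR adjusted p = 0.00434). PPARA, a nuclear receptor for fatty acids, fell from 57.2 and 52.8 to 32.8 and 39.1 CPM, and RXRA, its partner in the dimer, rose from 36.9 and 32.8 to 52.2 and 53.1 CPM. CEBPE, a factor best known from granulocytes, was at 51.00 and 52.7 CPM in the controls against 31.8 and 30.9 CPM with sh-SH2D1A (log2 change -0.73, SE 0.07, edgeR adjusted p = 0.00126).

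Called genes of antigen receptor assembly went in both directions. Those that rose were RAG1, RAG2 and PTCRA: RAG2 was at 11.3 and 11.6 CPM in the controls against 25.5 and 21.3 CPM with sh-SH2D1A (log2 change 1.03, SE 0.13, edgeR adjusted p = 0.00305) and PTCRA, the pre-T alpha chain, at 14.4 and 15.6 CPM in the controls against 26.1 and 29.02 CPM with sh-SH2D1A (log2 change 0.88, SE 0.10, edgeR adjusted p = 0.00281). RAG1 rose from 10.5 and 13.03 to 42.9 and 40.9 CPM. Those that fell were LIG4, DNTT and IGLL1. LIG4, the ligase that closes the broken ends, was at 136 and 131 CPM in the controls against 63.1 and 64.02 CPM with sh-SH2D1A (log2 change -1.07, SE 0.05, edgeR adjusted p = 0.000161). DNTT, which adds untemplated bases at the junction, was at 285 and 301 CPM in the controls against 167 and 156 CPM with sh-SH2D1A (log2 change -0.86, SE 0.06, edgeR adjusted p = 0.00039). IGLL1, a surrogate light chain gene, fell from 56.2 and 59.2 to 29.9 and 30.2 CPM. In the whole list of recombination genes 3 of 18 tested members fell and 3 rose (4, 5, 3 and 3 rises without sh-NC 1, sh-NC 2, sh-SH2D1A 1 and sh-SH2D1A 2). RAG2 shares 26.0% of its exonic bases with RAG1 on the other strand. Of NOTCH receptors and targets 5 of 25 tested members fell and 4 rose (5, 4, 0 and 1 falls, and 6, 5, 2 and 2 rises without sh-NC 1, sh-NC 2, sh-SH2D1A 1 and sh-SH2D1A 2). NOTCH3 had a log2 change of 0.26 (adjusted p = 0.0824 by edgeR).

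Among cell cycle genes the list of cyclins and inhibitors had a larger share of falls than the S phase and mitosis lists, a difference that was not tested. CDK6, the G1 kinase that pairs with D cyclins, rose from 1555 and 1431 to 2336 and 2273 CPM (log2 change 0.63, SE 0.05, edgeR adjusted p = 0.000972). The difference of means of CDK6 was 812 CPM, second to that of MT-ATP6 among called genes with a symbol. The partner cyclin CCND3 went the other way, from 611 and 630 to 426 and 438 CPM (log2 change -0.52, SE 0.05, edgeR adjusted p = 0.00111). CDKN1B, which encodes the inhibitor p27, was at 100.1 and 99.2 CPM in the controls against 67.3 and 70.1 CPM with sh-SH2D1A (log2 change -0.54, SE 0.05, edgeR adjusted p = 0.00156). CDKN2D, the inhibitor p19 of CDK4 and CDK6, fell from 45.9 and 44.7 to 29.5 and 30.5 CPM. CCNG1 fell from 119.9 and 126 to 85.9 and 81.9 CPM and CCNG2 from 78.9 and 78.1 to 54.7 and 52.9 CPM. Of cyclins and inhibitors 7 of 20 tested members fell and 1 rose (1, 1, 2 and 1 rises without sh-NC 1, sh-NC 2, sh-SH2D1A 1 and sh-SH2D1A 2). Of S phase genes 5 of 40 tested members fell and 2 rose (6, 4, 0 and 2 falls, and 5, 3, 1 and 1 rises without sh-NC 1, sh-NC 2, sh-SH2D1A 1 and sh-SH2D1A 2), with a median of -0.03. Of mitosis genes 3 of 40 tested members rose and 1 fell (2, 1, 1 and 0 falls, and 5, 5, 0 and 0 rises without sh-NC 1, sh-NC 2, sh-SH2D1A 1 and sh-SH2D1A 2), with a median of 0.01.

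Genes of cell death fell on both sides of the balance. BCL2, the survival factor, was at 65.9 and 67.4 CPM in the controls against 45.2 and 45.2 CPM with sh-SH2D1A (log2 change -0.56, SE 0.06, edgeR adjusted p = 0.00205). MCL1, its short-lived relative, fell from 181 and 186 to 139 and 134 CPM (log2 change -0.42, SE 0.05, edgeR adjusted p = 0.00281). The death promoters BAX and BBC3 (PUMA) fell too, BAX from 62.1 and 69.9 to 41.3 and 44.9 CPM and BBC3 from 20.6 and 22.8 to 11.2 and 10.7 CPM. In the BCL2 and caspase list 7 of 34 tested members fell and none rose. Of p53 targets 9 of 27 tested members fell and 2 rose. There were 1, 2, 0 and 0 rises when sh-NC replicate 1, sh-NC replicate 2, sh-SH2D1A replicate 1 and sh-SH2D1A replicate 2 were left out in turn. TP53INP1, a stress-induced nuclear protein, was at 23.6 and 21.3 CPM in the controls against 8.37 and 8.897 CPM with sh-SH2D1A (log2 change -1.38, SE 0.12, edgeR adjusted p = 0.00103). Jurkat is known to lack working p53.

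**Figure D3:**
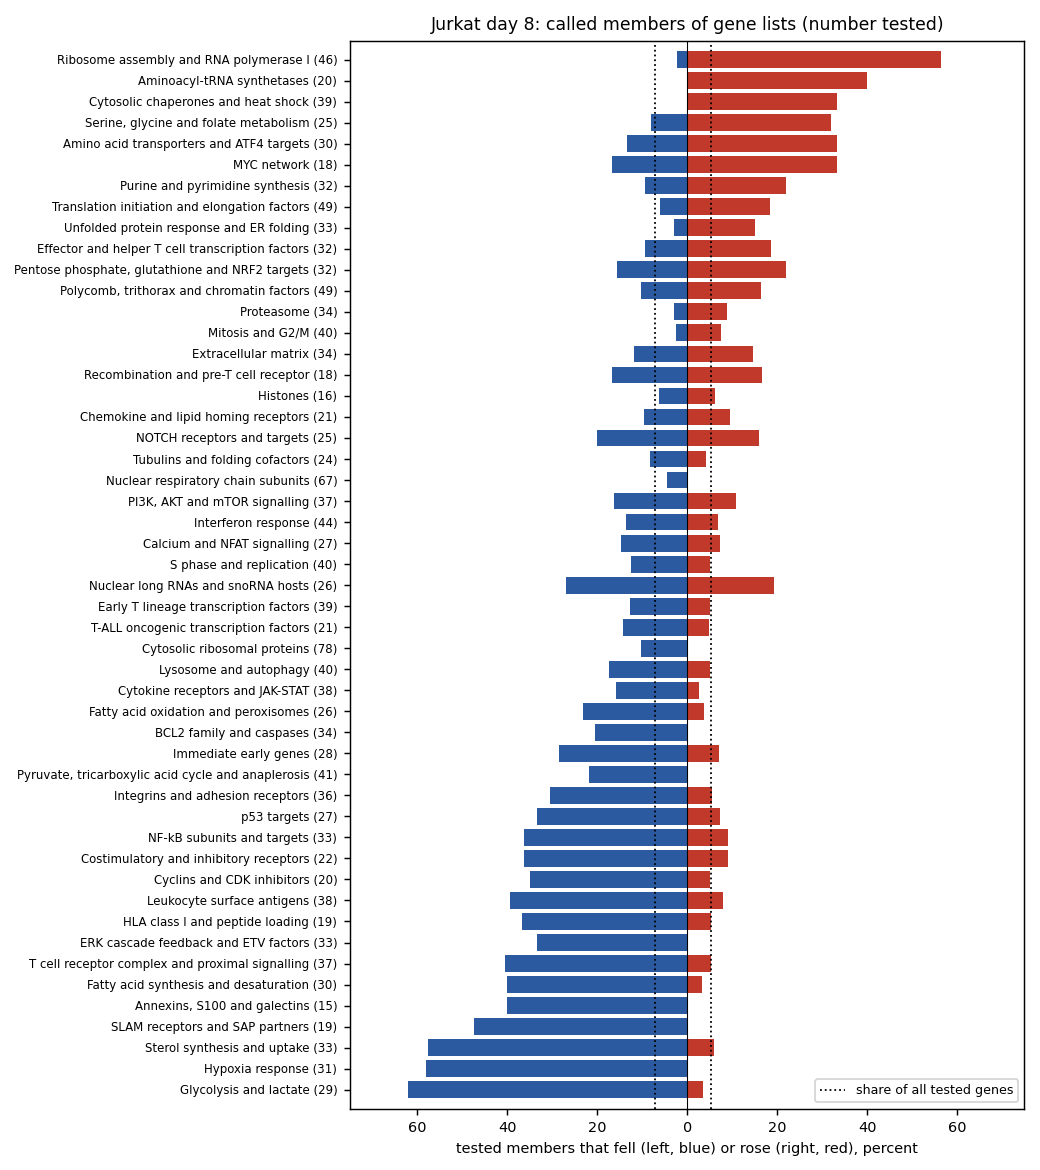
Horizontal bars give, for gene lists with at least 15 tested members, the percent of tested members that fell (blue, left) or rose (red, right) in the Jurkat day 8 comparison, with the number tested in brackets. Dotted lines mark the shares of all tested genes, 7.13% lower and 5.23% higher: ribosome assembly stands at the top, and glycolysis, hypoxia response and sterol synthesis at the bottom.

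The metabolic genes that fell most often were those of glycolysis and of the response to low oxygen. Glycolysis breaks glucose down to pyruvate and lactate in the cytosol, and HIF1 raises its enzymes when oxygen is short. Of glycolysis and lactate genes 18 of 29 tested members fell and 1 rose, with a median of -0.33. Leaving out sh-NC replicate 1, sh-NC replicate 2, sh-SH2D1A replicate 1 and sh-SH2D1A replicate 2 in turn gave 21, 18, 12 and 11 falls, and 1, 1, 0 and 0 rises. SLC2A3, the glucose transporter GLUT3, fell from 24.7 and 26.9 to 13.1 and 13.2 CPM (log2 change -0.97, SE 0.10, edgeR adjusted p = 0.00196). HK1, which traps glucose in the cell, fell from 93.6 and 96.2 to 66.5 and 67.9 CPM. PFKFB3, which makes the activator of phosphofructokinase, fell from 102 and 102 to 69.4 and 72.4 CPM. ENO2, the neuronal form of enolase, was at 327 and 339.9 CPM in the controls against 229 and 226 CPM with sh-SH2D1A (log2 change -0.55, SE 0.05, edgeR adjusted p = 0.00104). PGK1, the first step that yields ATP, was at 1253 and 1300 CPM in the controls against 967 and 961 CPM with sh-SH2D1A (log2 change -0.41, SE 0.05, edgeR adjusted p = 0.00246). SLC16A3, the lactate exporter MCT4, was at 28.8 and 28.1 CPM in the controls against 14.1 and 12.6 CPM with sh-SH2D1A (log2 change -1.09, SE 0.10, edgeR adjusted p = 0.00128). GBE1, which branches glycogen, fell from 55.1 and 56.8 to 26.8 and 25.4 CPM. GAPDH, the glycolytic dehydrogenase with the largest loss of level among called genes, was at 4322 and 4652 CPM in the controls against 3630 and 3536 CPM with sh-SH2D1A (log2 change -0.32), and its call was lost without sh-SH2D1A replicate 1 (edgeR adjusted p = 0.0589) and without sh-SH2D1A replicate 2 (edgeR adjusted p = 0.1).

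Of hypoxia response genes 18 of 31 tested members fell and none rose, with a median of -0.45. The list had 1, 1, 0 and 0 rises without sh-NC replicate 1, sh-NC replicate 2, sh-SH2D1A replicate 1 and sh-SH2D1A replicate 2, respectively. WSB1, a substrate-binding subunit of a ubiquitin ligase, was at 320.5 and 339 CPM in the controls against 179.5 and 179.8 CPM with sh-SH2D1A (log2 change -0.88, SE 0.05, edgeR adjusted p = 0.000252). P4HA1, a collagen prolyl hydroxylase subunit, fell from 64.3 and 65.1 to 32.8 and 37.4 CPM (log2 change -0.88, SE 0.08, edgeR adjusted p = 0.00105). EGLN1, the oxygen sensor PHD2, was at 77.7 and 77.1 CPM in the controls against 52.2 and 52.1 CPM with sh-SH2D1A (log2 change -0.57, SE 0.06, edgeR adjusted p = 0.00151). VEGFA, the vessel growth factor, fell from 62.3 and 59.5 to 39.4 and 37.2 CPM and NDRG1 from 54.8 and 60.2 to 35.3 and 32.4 CPM. DDIT4, an inhibitor of mTORC1, fell from 81.3 and 85.1 to 44.4 and 44.03 CPM, with 41.2% of its exonic bases shared with a gene on the other strand. PDK1, the kinase that inhibits pyruvate dehydrogenase, was at 123 and 119 CPM in the controls against 70.96 and 61.4 CPM with sh-SH2D1A.

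Promoters of 3 genes of these lists are shown because they carry ACGTG, the core of the element bound by HIF1. The window and strand are as above, and capitals mark the 5 letters on either strand, where 2 matches may overlap in CACGTG.
BNIP3, chr10:131981924-131982173, minus strand: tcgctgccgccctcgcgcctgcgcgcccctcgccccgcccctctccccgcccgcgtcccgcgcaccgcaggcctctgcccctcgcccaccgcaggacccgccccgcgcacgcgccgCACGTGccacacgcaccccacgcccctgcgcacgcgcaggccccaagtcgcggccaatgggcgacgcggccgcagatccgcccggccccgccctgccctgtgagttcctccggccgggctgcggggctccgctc
WSB1, chr17:27293864-27294113, plus strand: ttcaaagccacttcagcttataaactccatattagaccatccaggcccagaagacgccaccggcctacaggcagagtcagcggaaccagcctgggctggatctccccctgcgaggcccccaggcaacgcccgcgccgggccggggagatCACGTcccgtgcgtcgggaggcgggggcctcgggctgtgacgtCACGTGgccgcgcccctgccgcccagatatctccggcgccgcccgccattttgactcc
ENO2, chr12:6914330-6914579, plus strand: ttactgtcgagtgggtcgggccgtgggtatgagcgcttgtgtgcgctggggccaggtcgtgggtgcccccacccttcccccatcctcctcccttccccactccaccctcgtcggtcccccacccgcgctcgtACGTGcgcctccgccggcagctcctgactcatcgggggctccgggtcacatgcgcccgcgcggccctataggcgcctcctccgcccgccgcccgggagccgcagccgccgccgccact
In BNIP3, a mitophagy receptor at 116 and 122 CPM in the controls against 64.5 and 61.9 CPM with sh-SH2D1A, the pattern starts 134 and 133 bases before the start. In WSB1 it starts at 101, 58 and 57 and in ENO2 at 118 bases before it. In the window of 250 bases before to 50 after the start, 15 of 26 hypoxia genes (57.7%) and 10 of 26 glycolysis genes (38.5%) held ACGTG on either strand. So did 18 of 40 ribosome assembly genes (45%), a list of which 26 of 46 tested members rose, 26.2% of the promoters of tested genes and 21.6% of all promoters. Of the hypoxia genes with ACGTG, EGLN2, PDK3, CA9, ERO1A, ANGPTL4 and LOX did not pass the test. Nor did PGM2 among the glycolysis genes with it. The longer form CACGTG, which MYC and other helix-loop-helix factors bind, was in 12 of 40 promoters of ribosome assembly genes (30%), in 19.2% of hypoxia and 19.2% of sterol gene promoters, in 10.1% of those of tested genes and in 7.43% of all.

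Mitochondrial genes had smaller shares of falls than glycolysis. Of genes for pyruvate use and the tricarboxylic acid cycle 9 of 41 tested members fell and none rose (10, 7, 3 and 4 falls, and 0, 1, 0 and 0 rises without sh-NC 1, sh-NC 2, sh-SH2D1A 1 and sh-SH2D1A 2), with a median of -0.13. SDHD, a subunit of succinate dehydrogenase, fell from 54.4 and 57.7 to 37.2 and 31.5 CPM (log2 change -0.70, SE 0.09, edgeR adjusted p = 0.00389). MPC2, a subunit of the mitochondrial pyruvate carrier, fell from 62.8 and 63.4 to 45.9 and 46.3 CPM, with 22.5% of exonic bases shared with DCAF6 on the other strand. Of nuclear respiratory chain genes 3 of 67 tested members fell and none rose (8, 2, 3 and 2 falls, and 0, 1, 0 and 0 rises without sh-NC 1, sh-NC 2, sh-SH2D1A 1 and sh-SH2D1A 2). ATP5F1A, the alpha subunit of ATP synthase, was at 478 and 516 CPM in the controls against 362 and 373 CPM with sh-SH2D1A (log2 change -0.43, SE 0.06, edgeR adjusted p = 0.00355). Of proteins encoded in the mitochondrial genome 5 of 13 tested members rose and none fell (1, 0, 0 and 0 falls, and 6, 10, 2 and 0 rises without sh-NC 1, sh-NC 2, sh-SH2D1A 1 and sh-SH2D1A 2). MT-ATP6 had the largest gain of level among called genes with a symbol, from 3230 and 3556 to 4310 and 4441 CPM. The call of MT-ATP6 was lost without sh-SH2D1A replicate 2. MT-RNR2, a ribosomal RNA of the same genome, went the other way and was among the 10 largest called losses of mean CPM. Its call was not checked with libraries left out.

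Of the 3 lipid lists, sterol synthesis had the largest share of falls. Cells make cholesterol from acetyl-CoA through mevalonate and squalene under the control of SREBP2. Of sterol synthesis and uptake genes 19 of 33 tested members fell and 2 rose, with a median of -0.35. With sh-NC replicate 1, sh-NC replicate 2, sh-SH2D1A replicate 1 and sh-SH2D1A replicate 2 left out in turn, there were 19, 19, 12 and 10 falls, and 3, 2, 0 and 0 rises. HMGCS1, at the entry to the pathway, was at 539.9 and 559 CPM in the controls against 418 and 391 CPM with sh-SH2D1A (log2 change -0.44, SE 0.05, edgeR adjusted p = 0.00294). MVD, which ends the mevalonate stage, was at 186 and 191 CPM in the controls against 119 and 129.6 CPM with sh-SH2D1A (log2 change -0.60, SE 0.06, edgeR adjusted p = 0.00133). LSS, which closes the sterol rings, was at 219 and 206 CPM in the controls against 155 and 153 CPM with sh-SH2D1A (log2 change -0.46, SE 0.05, edgeR adjusted p = 0.0023). STARD4, a carrier of cholesterol, fell from 118 and 123 to 88.9 and 83.6 CPM and ABCG1, an exporter, from 49.3 and 45.7 to 28.8 and 27.7 CPM. In each the 2 libraries of an arm differed little beside the gap between arms. SREBF2, which encodes SREBP2, was at 610.4 and 577 CPM in the controls against 548 and 538 CPM with sh-SH2D1A (adjusted p = 0.136 by edgeR).

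Of fatty acid synthesis genes 12 of 30 tested members fell and 1 rose (13, 11, 4 and 4 falls, and 1, 1, 0 and 0 rises without sh-NC 1, sh-NC 2, sh-SH2D1A 1 and sh-SH2D1A 2), with a median of -0.18. ACSS2, which makes acetyl-CoA from acetate, fell from 24.3 and 22.4 to 12.5 and 12.2 CPM (log2 change -0.92, SE 0.11, edgeR adjusted p = 0.00281). SCD, the stearoyl desaturase and one of the most abundant of these, was at 1300 and 1279 CPM in the controls against 916 and 902 CPM with sh-SH2D1A. Of fatty acid oxidation genes 6 of 26 tested members fell and 1 rose (7, 5, 2 and 2 falls, and 1, 1, 0 and 0 rises without sh-NC 1, sh-NC 2, sh-SH2D1A 1 and sh-SH2D1A 2). ACADM, the medium-chain dehydrogenase, fell from 187 and 201 to 144 and 132 CPM (log2 change -0.49, SE 0.06, edgeR adjusted p = 0.0038). The retinal dehydrogenase ALDH1A2, which makes retinoic acid, was at 734 and 782 CPM in the controls against 479 and 471 CPM with sh-SH2D1A (log2 change -0.67, SE 0.05, edgeR adjusted p = 0.000648).

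Among lists with more rises than falls were those of ribosome assembly, cytosolic chaperones and amino acid supply. Ribosome assembly takes place in the nucleolus, where RNA polymerase I makes ribosomal RNA. Of ribosome assembly and RNA polymerase I genes 26 of 46 tested members rose and 1 fell, with a median of 0.26. There were 1, 1, 1 and 0 falls, and 25, 29, 12 and 7 rises when sh-NC replicate 1, sh-NC replicate 2, sh-SH2D1A replicate 1 and sh-SH2D1A replicate 2 were left out in turn. DDX21, a nucleolar helicase, was at 194 and 188 CPM in the controls against 272 and 266 CPM with sh-SH2D1A (log2 change 0.49, SE 0.05, edgeR adjusted p = 0.00141). PES1, a factor of the large subunit, rose from 98.8 and 94.3 to 129 and 128 CPM (log2 change 0.41, SE 0.05, edgeR adjusted p = 0.00356). NCL, the main nucleolar protein, was at 801 and 794 CPM in the controls against 1007 and 1036 CPM with sh-SH2D1A (log2 change 0.36), and its call was lost without sh-SH2D1A replicate 2 (edgeR adjusted p = 0.0672). The ribosomal proteins themselves went the other way by a little: of 78 none rose and 8 fell, with a median of -0.12. That count moved with the library left out, with 47 falls without sh-NC replicate 1, 7 without sh-NC replicate 2, and 1 and 0 without sh-SH2D1A replicates 1 and 2.

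MYC, the factor that drives ribosome genes, was at 201 and 214 CPM in the controls against 282 and 294 CPM with sh-SH2D1A (log2 change 0.47, SE 0.05, edgeR adjusted p = 0.0026). In the MYC network 6 of 18 tested members rose and 3 fell (3, 2, 1 and 1 falls, and 6, 5, 1 and 1 rises without sh-NC 1, sh-NC 2, sh-SH2D1A 1 and sh-SH2D1A 2), and MLX, a partner in the network with 18.1% of its exonic bases in a gene on the other strand, fell from 87.8 and 90.7 to 66.7 and 66.1 CPM. Of aminoacyl-tRNA synthetases 8 of 20 tested members rose and none fell (9, 8, 1 and 0 rises without sh-NC 1, sh-NC 2, sh-SH2D1A 1 and sh-SH2D1A 2), with a median of 0.12. Of translation factors 9 of 49 tested members rose and 3 fell (7, 3, 1 and 0 falls, and 11, 9, 3 and 0 rises without sh-NC 1, sh-NC 2, sh-SH2D1A 1 and sh-SH2D1A 2).

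Among amino acid transporters and targets of the stress factor ATF4 10 of 30 tested members rose and 4 fell, with a median of 0.12. Leaving out sh-NC replicate 1, sh-NC replicate 2, sh-SH2D1A replicate 1 and sh-SH2D1A replicate 2 in turn gave 3, 3, 1 and 1 falls, and 9, 10, 2 and 2 rises. SLC7A5, the leucine transporter LAT1, was at 581 and 571 CPM in the controls against 769 and 804 CPM with sh-SH2D1A (log2 change 0.45, SE 0.05, edgeR adjusted p = 0.00201). Of serine, glycine and folate genes 8 of 25 tested members rose and 2 fell (3, 3, 1 and 2 falls, and 7, 9, 1 and 0 rises without sh-NC 1, sh-NC 2, sh-SH2D1A 1 and sh-SH2D1A 2). PHGDH, the first enzyme of serine synthesis, was at 206 and 219 CPM in the controls against 272 and 266 CPM with sh-SH2D1A, and its rise was lost without sh-SH2D1A replicate 1 (edgeR adjusted p = 0.0666) and without sh-SH2D1A replicate 2 (edgeR adjusted p = 0.0658). The list of purine and pyrimidine synthesis and that of glutathione and NRF2 targets held called members in both directions, with medians of 0.04 and 0.09. PFAS, an enzyme of purine synthesis, rose from 128 and 126 to 171 and 179 CPM (log2 change 0.46, SE 0.05, edgeR adjusted p = 0.00225). NME1, a nucleoside diphosphate kinase, rose from 58.1 and 69.2 to 93.8 and 94.6 CPM, with 18.6% of its exonic bases shared with the read-through gene NME1-NME2. TXNRD1, the thioredoxin reductase, was at 409 and 435 CPM in the controls against 583 and 573 CPM with sh-SH2D1A (log2 change 0.45, SE 0.05, edgeR adjusted p = 0.00228), and KEAP1, the sensor that holds NRF2 down, rose from 98.7 and 94.9 to 127 and 126 CPM.

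Of cytosolic chaperones 13 of 39 tested members rose and none fell, with a median of 0.16. The list had 0, 1, 0 and 0 falls, and 14, 18, 5 and 6 rises without sh-NC replicate 1, sh-NC replicate 2, sh-SH2D1A replicate 1 and sh-SH2D1A replicate 2, respectively. HSPA8, the constitutive HSP70, was at 780.3 and 802 CPM in the controls against 1198 and 1143 CPM with sh-SH2D1A. HSP90AB1, the constitutive HSP90, was at 1125 and 1112 CPM in the controls against 1479 and 1474 CPM with sh-SH2D1A (log2 change 0.40, SE 0.04, edgeR adjusted p = 0.00216). DNAJA1, a cochaperone, rose from 212 and 216 to 304 and 305 CPM (log2 change 0.51, SE 0.05, edgeR adjusted p = 0.00114). HSPH1, an exchange factor of HSP70, rose from 143 and 149 to 193 and 198 CPM. In the endoplasmic reticulum list 5 of 33 tested members rose and 1 fell (5, 1, 2 and 1 falls, and 6, 7, 2 and 2 rises without sh-NC 1, sh-NC 2, sh-SH2D1A 1 and sh-SH2D1A 2). The median of that list was -0.03, with 12 positive and 21 negative changes. HSPA5 (BiP) rose from 149.9 and 158 to 247 and 241 CPM, while EDEM1, which hands misfolded proteins to degradation, fell from 588 and 571 to 409 and 428 CPM (log2 change -0.47, SE 0.05, edgeR adjusted p = 0.0019).

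The 5 largest called rises among genes with a mean of at least 100 CPM were in genes outside these pathways. MAP1A, a microtubule-associated protein, was at 249 and 199 CPM in the controls against 389.8 and 412 CPM with sh-SH2D1A (log2 change 0.84, SE 0.10, edgeR adjusted p = 0.00241), with sh-NC replicate 1 above sh-NC replicate 2 and both below the knockdown libraries. CBX6, a Polycomb protein, rose from 94.6 and 89.3 to 146 and 157 CPM (log2 change 0.72, SE 0.06, edgeR adjusted p = 0.000883). ANKRD52, a subunit of a phosphatase complex, rose from 145 and 132 to 227 and 224 CPM. PMEPA1, an inhibitor of TGF-beta signals, was at 156 and 159.8 CPM in the controls against 254 and 251 CPM with sh-SH2D1A (log2 change 0.68, SE 0.05, edgeR adjusted p = 0.000494). KIRREL1, an adhesion protein of the immunoglobulin family, rose from 101 and 92.4 to 151 and 156 CPM. Further down, ANKRD11 rose from 374 and 303 to 521 and 531 CPM, CAPN15 from 115 and 112 to 170.3 and 172 CPM and B4GALNT1, a ganglioside synthase, from 105 and 101 to 156 and 153 CPM. B4GALNT1 shares 26.7% of its exonic bases with a pseudogene on the other strand.

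Among the falls, TBCA, a cofactor that folds beta-tubulin, was at 107 and 113 CPM in the controls against 29.8 and 29.2 CPM with sh-SH2D1A (log2 change -1.90, SE 0.06, edgeR adjusted p = 1.61e-05), a larger log2 change than that of SH2D1A. CELF2, a regulator of splicing in T cells, was at 258 and 241 CPM in the controls against 128 and 130 CPM with sh-SH2D1A (log2 change -0.96, SE 0.05, edgeR adjusted p = 0.000232). TOP2B, a topoisomerase also present in resting cells, was at 453 and 431 CPM in the controls against 240.1 and 232 CPM with sh-SH2D1A (log2 change -0.91, SE 0.05, edgeR adjusted p = 0.000232). SUMO3, a small protein tag, fell from 150.1 and 174 to 86.8 and 85.4 CPM (log2 change -0.91, SE 0.07, edgeR adjusted p = 0.000869). TSPAN7, a tetraspanin, fell from 394 and 429.9 to 239.7 and 235 CPM, with 21.7% of its exonic bases shared with another gene. NEMP1, a protein of the nuclear envelope, fell from 179 and 189 to 106 and 110.1 CPM. RAC2, the Rac GTPase of blood cells, was at 139 and 139.8 CPM in the controls against 98.2 and 102 CPM with sh-SH2D1A (log2 change -0.48, SE 0.05, edgeR adjusted p = 0.00188), and CORO1A, an actin regulator of lymphocytes, fell from 964 and 994 to 733 and 738 CPM.

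Of nuclear long RNAs and snoRNA host transcripts 7 of 26 tested members fell and 5 rose (7, 6, 2 and 2 falls, and 4, 5, 3 and 2 rises without sh-NC 1, sh-NC 2, sh-SH2D1A 1 and sh-SH2D1A 2). MIAT, a nuclear RNA, was at 34.3 and 29.3 CPM in the controls against 82.95 and 96.5 CPM with sh-SH2D1A (log2 change 1.496, SE 0.10, edgeR adjusted p = 0.000413), with 25.6% of its exonic bases shared with a gene on the other strand. NEAT1, the scaffold of paraspeckles, was at 173 and 180.3 CPM in the controls against 238 and 243 CPM with sh-SH2D1A (log2 change 0.44, SE 0.05, edgeR adjusted p = 0.00227).

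At day 10, in libraries of their own, fewer Jurkat genes passed the same test, 240 (1.26%) higher and 481 (2.52%) lower of 19079. Of the day 8 calls, 484 were called the same way at day 10, which is 20.3% of the day 8 calls and 67.1% of the day 10 calls, and none the opposite way. The difference between the days was called for 4 of 20099 genes (0.0199%), which were HSPA5, WSB1, BEST1 and ERCC5, with 3 (0.0149%) more positive and 1 (0.00498%) more negative at day 8, and 1799 had an unadjusted p under 0.05. The DESeq2 Wald test called 129, and the fit with the replicate number as a block 0. HSPA5 was 0.66 at day 8 and -0.20 at day 10 on the log2 scale. WSB1 was -0.88 and -0.08. BEST1, an ion channel gene, was at 0.762 and 0.598 CPM in the controls against 1.27 and 1.49 CPM with sh-SH2D1A at day 8, not past the threshold, with log2 changes of 1.02 and -3.68. ERCC5, a repair nuclease, was 1.03 and 0.04, but 63.2% of its exonic bases lie in the read-through gene BIVM-ERCC5. That gene was at 78.1 and 81.1 CPM in the controls and at 0 in both sh-SH2D1A libraries of day 8. Summed, the 2 genes were at 133 and 127 CPM in the controls against 105 and 98.7 CPM with sh-SH2D1A, the reverse of the direction of ERCC5 alone, and their reads cannot be told apart.

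Against 6T-CEM, taken as the mean of its changes at days 5 and 10, the Jurkat day 8 change differed for 158 of 22032 genes (0.717%), 94 (0.427%) more positive and 64 (0.29%) more negative. In 6T-CEM itself 118 genes (0.606%) rose and 294 (1.51%) fell at day 5, and 1296 (6.61%) and 1456 (7.42%) at day 10. SH2D1A changed by -1.72 and -1.60 in Jurkat, -1.71 and -0.996 in 6T-CEM on the log2 scale, at days 8 and 10 and at days 5 and 10. MAP2K2 was -1.40 and -1.15 in Jurkat, -1.36 and -0.80 in 6T-CEM, NRAS -0.99 and -0.90 in Jurkat, -1.29 and -1.02 in 6T-CEM. TBCA was -1.90 and -1.49 in Jurkat, -1.46 and -1.55 in 6T-CEM, CELF2 -0.96 and -0.88 in Jurkat, -0.77 and -0.81 in 6T-CEM. These 5 genes had a negative change in all 4 comparisons, each made with an shRNA under the same label. HLA-B was -0.99 and -1.17 in Jurkat, -0.70 and 0.71 in 6T-CEM, with a called difference between the lines, and B2M was -0.57 and -0.58 in Jurkat, -0.03 and 0.38 in 6T-CEM, called as well. CD28, the costimulatory receptor, was -0.55 and -0.44 in Jurkat, 0.54 and 0.73 in 6T-CEM, again a called difference. TCF7 was 0.52 and 0.50 in Jurkat, 0.04 and -0.13 in 6T-CEM, and its difference between the lines was called too. CEBPE (-0.73 and -0.24 in Jurkat, -1.53 and -2.15 in 6T-CEM) and NEAT1 (0.44 and 0.67 in Jurkat, 1.24 and 0.87 in 6T-CEM) had the same sign in both lines and a larger size in 6T-CEM. TENT5C, a poly(A) polymerase, did not pass the test in Jurkat at day 8 (-0.17, adjusted p = 0.0667 by edgeR) and was -1.35 and -1.38 in 6T-CEM at days 5 and 10. Without each of the 4 Jurkat day 8 libraries in turn, between 36 and 94 genes had a called line difference.

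**Figure D4:**
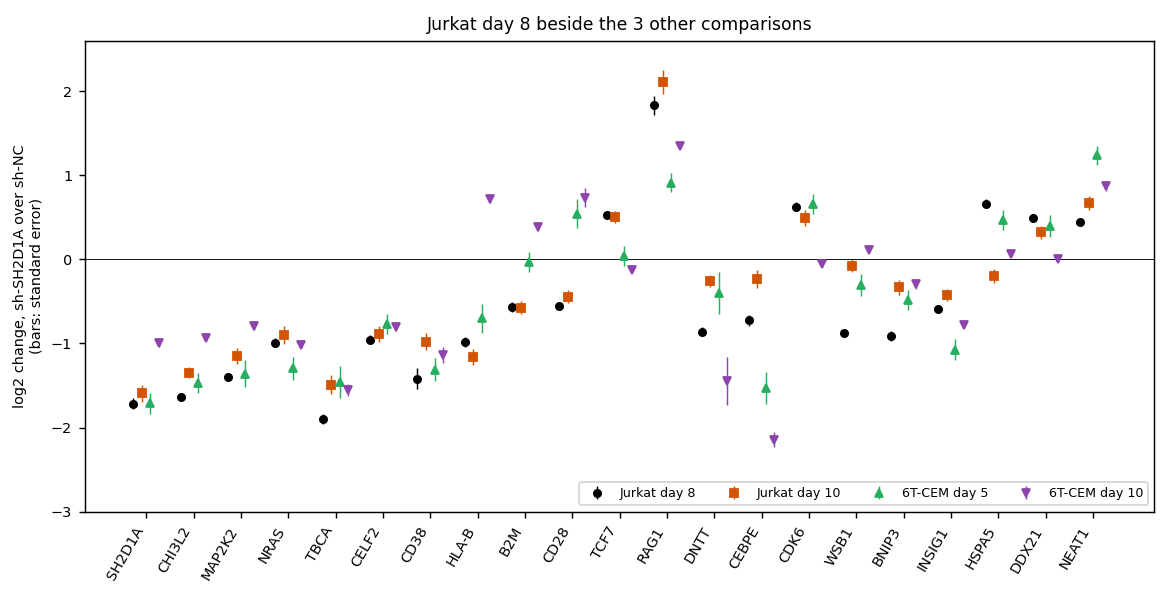
Log2 changes with sh-SH2D1A over sh-NC for 21 genes in Jurkat at day 8 (black circles), Jurkat at day 10 (orange squares) and 6T-CEM at day 5 (green upward triangles) and day 10 (purple downward triangles), with standard errors as bars. MAP2K2, NRAS, TBCA and CELF2 lie below 0 in all 4 comparisons, while HLA-B, B2M and CD28 are negative in Jurkat at both days and positive in 6T-CEM at day 10.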

How the data were processed

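Gene expression of Jurkat cells was read from a table of raw gene counts that the authors deposited for day 8, with 2 libraries for each shRNA. Other tables of the same kind held Jurkat day 10 and 6T-CEM. Per the submitters' processing notes, HISAT2 2.2.0, StringTie and the genome build hg38 were used. Neither the annotation, the counting step nor its strand setting is stated there or in the labels, so overlapping genes cannot be told apart. No shRNA sequence was analysed here. The table held 64252 gene identifiers, of which 40995 came with a symbol. Genes with the symbol missing stayed in the fit but are not named, and rankings of genes leave them out. The shares of counts without a symbol were 3.10% to 3.12%.

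Genes were filtered with filterByExpr (minimum count 10), scaled by TMM and tested with edgeR 4.0.16 (quasi-likelihood F-test, R 4.3.3) on the 4 libraries, with Benjamini-Hochberg adjustment over all tested genes and a threshold of 0.05. A standard error is the log2 change divided by the square root of F. Differences between day 8 and day 10, and between Jurkat day 8 and the mean of both 6T-CEM days, came from edgeR contrasts. DESeq2 1.42.0 served as an alternative, beside other filters, fits and left-out libraries. In data simulated for the day 8 comparison, 200 of 19266 genes were changed. There 38% of 1.5-fold, 50% of 2-fold and 86% of 4-fold changes were recovered, and 15 of 152 calls were on unchanged genes. Far more genes were called in the real data, so these rates need not hold there. The 2 libraries of each arm differed beyond counting noise (chi-square per degree of freedom of 9.49 and 5.85). Promoter letters came from RefSeq (GRCh38.p14).

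The members of the lists, and the lists themselves, were chosen with earlier results of these data known. Genes named are the 15 largest rises and falls of at least 100 CPM, the 10 largest differences of mean CPM in each direction, up to 8 called members of a list by adjusted p (up to 3 uncalled where fewer than 3 were called), up to 6 differences between days or lines in each direction, and partners of such genes. BEST1 fell outside this rule and was chosen after its values were seen. Not every gene or list that qualifies is reported here.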

Additional observations from a re-analysis of the deposited data

Results flagged for a closer look

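Each result here is a tested difference between 2 knockdown changes, on the log2 scale, with the edgeR adjusted p. Between days, the change at day 8 minus that at day 10 was 4.70 for BEST1 (adjusted p = 0.0144), 1.00 for ERCC5 (0.0263), 0.87 for HSPA5 (0.0144) and -0.79 for WSB1 (0.0144). BEST1 had at most 1.49 CPM at day 8.

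Against 6T-CEM, the Jurkat day 8 change was more positive by 1.21 for TENT5C (adjusted p = 2.05e-05), 1.13 for CEBPE (0.00238), 0.78 for IGLL1 (0.00263), 0.71 for RAG1 (0.0289), 0.66 for BCL2 (0.0234) and 0.65 for ALDH1A2 (0.000765). It was more positive by 0.59 for KIRREL1 (0.0357), 0.58 for MAP1A (0.0328), 0.58 for TCF7 (0.00371), 0.55 for MYB (0.00645), 0.47 for TNFAIP3 (0.0131), 0.44 for MYC (0.0212), 0.41 for HSPA5 (0.0497) and 0.36 for NCL (0.0189).

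On the negative side the difference was -1.18 for CD28 (0.000745), -1.05 for LY9 (0.00823), -1.04 for TP53INP1 (0.00238), -0.98 for HLA-B (0.00657), -0.76 for WSB1 (0.00292) and -0.73 for B2M (0.00215). It was -0.61 for P4HA1 (0.0163), -0.60 for NEAT1 (0.00662), -0.59 for CCNG2 (0.0217), -0.51 for BNIP3 (0.0218), -0.51 for BTG1 (0.0302), -0.43 for GIMAP4 (0.0425), -0.42 for CHI3L2 (0.0199) and -0.42 for JAM3 (0.0204).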

How the results depend on the processing

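SH2D1A and CHI3L2 fell in every alternative, by log2 changes of -1.66 to -1.78 and -1.59 to -1.68. The number of calls moved more. Without a filter on low counts 319 genes rose and 554 fell, with all 16 libraries in 1 fit 569 and 754, at 2-fold or more 105 and 106, and at an adjusted p under 0.01 233 and 504. Leaving out 1 library gave 177 to 1391 rises and 456 to 1587 falls. The share of calls that were rises was 42.3%, and it was 31.6% at an adjusted p under 0.01, 32.0% without sh-SH2D1A replicate 1 and 28.0% without replicate 2. The cause was not tested. For the difference between days, DESeq2's Wald test called 129 genes, edgeR without the filter 0 (2158 at an unadjusted p under 0.05) and the replicate block 0 (2005), and left-out libraries 8 to 17. For the difference between lines the Wald test called 590, the replicate block 283 and left-out libraries 36 to 94. The replicate block gave 725 rises and 1072 falls at day 8. The labels share only a number between arms and do not say whether libraries were paired. The correlation of same-numbered deviations was 0.02, which cannot show how they were prepared. The main fit treated the libraries as unpaired. In data simulated for the day 8 comparison with 200 genes changed, 38% of 1.5-fold changes were recovered.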
